A study of Bos indicus with 5 samples.

Results

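Transcript abundance of 10 macrophage and myeloid genes was examined in the ampulla, the wide segment of the oviduct next to the ovary. The genes were CSF1R, CD14, CD68, CD163, AIF1, TYROBP, C1QA, C1QB, C1QC and LCP1, and they were taken by symbol from the table of normalized read counts. Each symbol matched 1 of the 24616 rows, and all 10 were among the 15815 genes with a mean value over 5 that entered the test. The samples were whole-thickness ampulla of healthy, multiparous, non-lactating Nelore (Bos indicus) cows, 1 library per cow, from the oviduct on the side of the corpus luteum. All cows were presynchronized with a prostaglandin F2α analog (sodium cloprostenol, 0.5 mg) and a GnRH agonist (buserelin acetate, 1 µg), and then received an intravaginal progesterone device (1 g) together with estradiol benzoate (2 mg). Cloprostenol was given again when the device came out and 6 h later, ovulation was induced with the GnRH agonist, and the tissue was taken on day 4. Cows labelled LF/LCL, for a large follicle and a large corpus luteum, numbered 2. In them cloprostenol was also given at device insertion, and the device came out 42 h before the GnRH agonist. The 3 cows labelled SF/SCL, for a small follicle and a small corpus luteum, had it removed 30 h before. The sequenced cows were chosen from the extremes of both groups, and a further LF/LCL library had been discarded by the authors for its few reads, which leaves 2 and 3 cows as the basis of every comparison.

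Macrophages are phagocytes that live in most tissues, including the wall of the oviduct, where they take up dead cells, debris and spermatozoa. Their survival depends on CSF1R, the receptor tyrosine kinase that binds the growth factors CSF1 and IL34. CD14 passes bacterial lipopolysaccharide to TLR4, CD163 takes up haemoglobin bound to haptoglobin, and CD68 is a glycoprotein of phagocyte lysosomes. TYROBP is a membrane adaptor that signals for receptors such as TREM2, AIF1 is a calcium-binding protein of the macrophage cytoskeleton, and LCP1 (L-plastin) bundles actin in leukocytes generally. C1QA, C1QB and C1QC encode the chains of C1q, which recognizes targets for the classical complement pathway and is made largely by macrophages in tissues.

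The question was whether these genes differed between the endocrine milieus. With limma on log2(value + 1), 0 of the 10 had an adjusted p under 0.05, and 0 had an unadjusted p under 0.05, where 11.5% of all genes tested did. Over all genes tested 0.0% had an adjusted p under 0.05 with limma. The edgeR quasi-likelihood test and DESeq2 on the recovered reads also called 0 of the 10, while over all genes tested edgeR called 0.0% and DESeq2 2.9%. At an unadjusted p under 0.05 edgeR found 0 of the 10 (11.6% of all genes tested) and DESeq2 found 1, LCP1 (p 0.0404, adjusted p 0.355), where 12.7% of all genes tested passed. Mean abundance was higher in LF/LCL for 7 genes and higher in SF/SCL for CD14, CD68 and CD163, all on the log2(value + 1) scale. The median log2 fold change (LF/LCL over SF/SCL) was 0.26, against 0.01 over all genes tested. Those counts and medians turned on single cows. Without LF/LCL replicate 2 only 3 of the 10 genes were higher in LF/LCL (median -0.22), and without SF/SCL replicate 2 only 2 were (median -0.03).

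**Figure D1:**
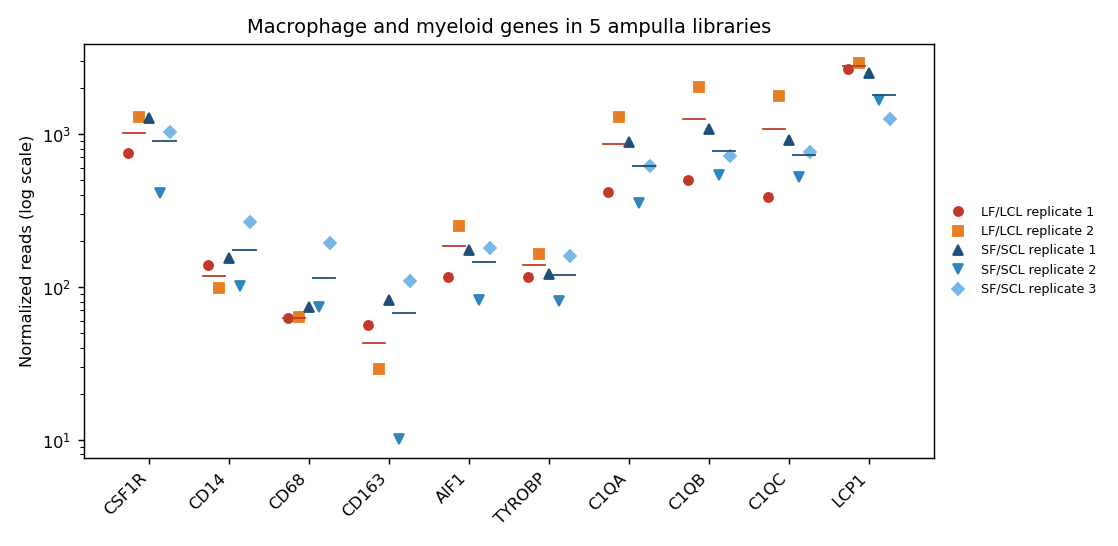
Normalized reads of the 10 genes (y axis, log scale) in each of the 5 libraries (points) with the group means (red bar LF/LCL, n = 2, blue bar SF/SCL, n = 3). LF/LCL replicate 2 was the highest library in 7 genes and SF/SCL replicate 2 the lowest in 5, and the groups overlapped in all genes but CD68 and LCP1.

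The libraries held from 13418278 to 19592174 reads assigned to genes, and the 10 genes together took from 4415 to 10185 of them. The smallest single count was 13 reads, for CD163 in SF/SCL replicate 2, where counting error alone is 27.7% of the value. All 10 genes were detected in every library, as were the 5 secretory and 7 of the 8 ciliated markers of oviduct epithelium. The eighth, PIFO, had reads in SF/SCL replicate 3 alone. For the other genes the smallest count was from 53 to 1163 reads. Whether a lower value reflects fewer cells or less RNA per cell cannot be told apart in tissue RNA. Values of different genes are not compared as levels, since the table holds no gene lengths.

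CSF1R (ENSBTAG00000012771), the receptor that defines the lineage, had 748.2 and 1286 normalized reads in the LF/LCL cows (replicates 1 and 2, in that order here and throughout). In the SF/SCL cows (replicates 1, 2 and 3) it had 1260.1, 410.3 and 1029. The values of LF/LCL lay inside the range of SF/SCL apart from replicate 2, which was barely above SF/SCL replicate 1. The log2 fold change was 0.28 ± 0.52 (SE; limma adjusted p 0.888), with a 95% interval from 0.498-fold to 2.94-fold. The estimate was -0.12 without LF/LCL replicate 2 and -0.21 without SF/SCL replicate 2.

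CD14 (ENSBTAG00000015032), the lipopolysaccharide coreceptor, had 138.4 and 97.8 normalized reads (LF/LCL) against 154.9, 101.03 and 262.9 (SF/SCL). CD68 (ENSBTAG00000000133), the lysosomal glycoprotein, had 62.2 and 62.9 (LF/LCL) against 73.8, 73.8 and 194.2 (SF/SCL). Every SF/SCL library was above both LF/LCL libraries for CD68, but 2 of the 3 by few reads only, and SF/SCL replicate 3 carried most of the difference. The CD68 log2 fold change was -0.70 ± 0.48 (SE; limma adjusted p 0.636), and it was -0.24 without SF/SCL replicate 3. For CD14 it was -0.46 ± 0.43 (SE; limma adjusted p 0.735), and -0.10 without SF/SCL replicate 3. Both genes were lower in LF/LCL in each of the 13 fits run, none of them past the adjusted threshold.

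CD163 (ENSBTAG00000019669), the haemoglobin scavenger receptor, was the most variable of the 10 genes. It had 56.3 and 29.04 normalized reads (LF/LCL) against 82.1, 10.1 and 109.5 (SF/SCL), so that SF/SCL held both the highest library and the lowest, 10.8-fold apart. The log2 fold change was -0.17 ± 1.04 (SE; limma adjusted p 0.971). Without LF/LCL replicate 2, SF/SCL replicate 1 or SF/SCL replicate 3 it was 0.29, 0.24 or 0.45. Without SF/SCL replicate 2 it was -1.21, with an unadjusted limma p of 0.0448 and an adjusted p of 0.467. Over the 12 alternatives the adjusted p of CD163 ran from 0.467 to 0.973. CD163 belongs to a family of scavenger receptors with close relatives in cattle, and only uniquely mapped reads were counted. Whether reads of CD163 were lost for that reason was not tested, which leaves its values uncertain.

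AIF1 (ENSBTAG00000020554), the calcium-binding cytoskeletal protein, had 116.1 and 250.7 normalized reads (LF/LCL) against 174.7, 82.4 and 178.1 (SF/SCL). TYROBP (ENSBTAG00000007338), the adaptor, had 116.1 and 162.6 (LF/LCL) against 121.6, 80.8 and 157.8 (SF/SCL). In both genes LF/LCL replicate 2 was the highest library, SF/SCL replicate 2 the lowest, and the groups overlapped. The log2 fold changes were 0.32 ± 0.48 (SE; limma adjusted p 0.852) for AIF1 and 0.25 ± 0.35 (SE; limma adjusted p 0.841) for TYROBP. For AIF1 the value was -0.24 without LF/LCL replicate 2 and -0.05 without SF/SCL replicate 2, and for TYROBP it was -0.012 without SF/SCL replicate 2. TYROBP had the narrowest range of the 10 genes, 2.01-fold between its highest library and its lowest.

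The C1q chains had the widest differences between the LF/LCL cows. C1QA (ENSBTAG00000007153) had 417.5 and 1287 normalized reads (LF/LCL) against 877.5, 354.4 and 617.1 (SF/SCL). C1QB (ENSBTAG00000011196) had 500.8 and 2011 (LF/LCL) against 1069.8, 533.9 and 712.6 (SF/SCL). C1QC (ENSBTAG00000011193) had 384.7 and 1763 (LF/LCL) against 908.7, 523.8 and 759.8 (SF/SCL). For each chain LF/LCL replicate 2 was above all SF/SCL libraries, while LF/LCL replicate 1 was the lowest library for C1QB and C1QC and the second lowest for C1QA. The log2 fold changes were 0.35 ± 0.57 (SE; limma adjusted p 0.869) for C1QA, 0.44 ± 0.61 (SE; limma adjusted p 0.838) for C1QB and 0.21 ± 0.64 (SE; limma adjusted p 0.935) for C1QC. Their sign depended on which LF/LCL cow was kept. For C1QC the value was 1.31 without replicate 1 and -0.89 without replicate 2, for C1QB 1.44 and -0.56, and for C1QA 1.16 and -0.47. Without SF/SCL replicate 2 the C1QC value was -0.013 and the C1QA value -0.0051.

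LCP1 (ENSBTAG00000007079), the leukocyte actin-bundling protein, came nearest to a group difference. It had 2638 and 2908 normalized reads (LF/LCL) against 2488, 1654 and 1248 (SF/SCL), and both LF/LCL libraries were above the 3 SF/SCL libraries. The means were 2773 ± 191.0 (SD, n = 2) and 1797 ± 632.2 (SD, n = 3). The log2 fold change was 0.68 ± 0.28 (SE), an estimate of 1.60-fold with a 95% interval from 0.991-fold to 2.60-fold. The unadjusted limma p was 0.0531 and the adjusted p 0.445. LCP1 was higher in LF/LCL in all 13 fits, with log2 fold changes from 0.45 to 0.95 in the alternatives, where the adjusted p ran from 0.269 to 0.699. Lymphocytes also express LCP1, and summed T and NK lymphocyte markers were separated in the same direction, at 999.2 and 1229 normalized reads (LF/LCL) against 576.0 to 739.9 (SF/SCL). Their part in the LCP1 value was not tested. LCP1 and CD68 were the 2 of 10 genes whose groups did not overlap, in opposite directions, against a background of 30.1% of genes tested.

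**Figure D2:**
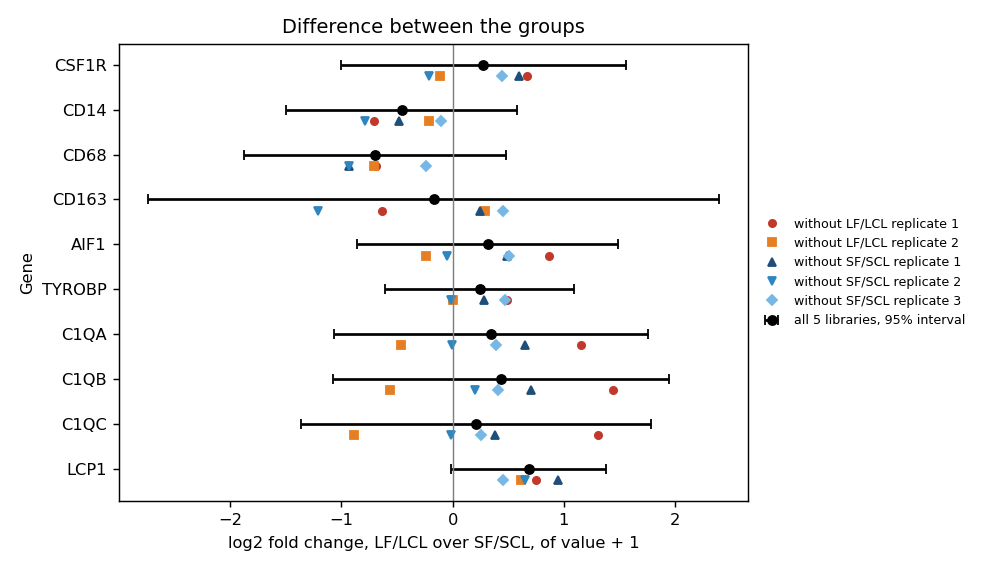
Log2 fold change of LF/LCL over SF/SCL for each gene (x axis, log2 of value + 1) with its 95% limma interval over all 5 libraries (black) and the estimate with each library left out (coloured symbols). All 10 intervals include 0, and the estimates of C1QC ran from -0.89 to 1.31 depending on the library left out.

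The spread between cows of one group was wide for all 10 genes. The within-group standard deviation of log2(value + 1) was above the median of all genes tested (0.23) in each of them. It was lowest in LCP1 (0.41), a value higher than in 72.1% of genes tested, and highest in CD163 (1.52), higher than in 98.1%. The median over the 10 genes was 0.73. In 7 of the 10 the highest library was more than 3-fold above the lowest, which with 1 added to each value held for 17.8% of genes tested.

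This spread followed particular cows. LF/LCL replicate 2 was the highest library for CSF1R, AIF1, TYROBP, C1QA, C1QB, C1QC and LCP1, and SF/SCL replicate 3 for CD14, CD68 and CD163. Over all genes tested, these libraries were the highest in 20.9% and 23.7% of genes. SF/SCL replicate 2 was the lowest library for CSF1R, CD163, AIF1, TYROBP and C1QA, against 18.7% of genes tested. It was also under the mean of the other SF/SCL cows, on the log2 scale, for all 10 genes, against 48.5% of genes tested. That deficit was -3.11 for CD163, -1.47 for CSF1R and -1.09 for AIF1, and only -0.09 for LCP1. Within LF/LCL, replicate 2 exceeded replicate 1 by 2.19 for C1QC, 2.00 for C1QB, 1.62 for C1QA and 1.10 for AIF1, all on the log2 scale. It was lower than replicate 1 for CD14 (-0.50) and CD163 (-0.93). Of all genes tested 6.01% were more than 2-fold higher in LF/LCL replicate 2 than in replicate 1, on the scale of value + 1, and of the 10 genes 4 were. No test was run on these single-library differences.

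**Figure D3:**
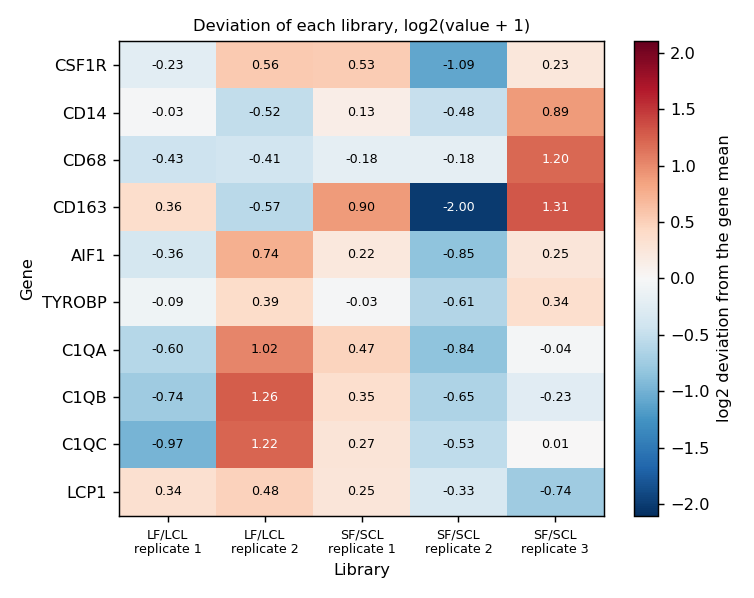
Deviation of each library (columns) from the mean of each gene (rows) over the 5 libraries, in log2(value + 1), red above and blue below. The C1q chains were highest in LF/LCL replicate 2 (1.02 to 1.26), CD14, CD68 and CD163 were highest in SF/SCL replicate 3 (0.89 to 1.31), and every gene was below its mean in SF/SCL replicate 2.

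Proportions between the 10 genes varied from cow to cow. C1QA, C1QB and C1QC lie close together on 1 chromosome in the RefSeq gene table (assembly NIAB-ARS_B.indTharparkar_mat_pri_1.0), C1QC directly next to C1QA. Their summed normalized reads ranged 3.88-fold over the libraries, from 1303 to 5061. Meanwhile the share of C1q reads taken by C1QA ran from 25.1% (95% Wilson interval 23.2% to 27.1%, SF/SCL replicate 2) to 32.0% (29.4% to 34.8%, LF/LCL replicate 1). The share of C1QB ran from 34.1% (32.03% to 36.2%, SF/SCL replicate 3) to 39.7% (38.4% to 41.1%, LF/LCL replicate 2). The share of C1QC ran from 29.5% (26.9% to 32.3%, LF/LCL replicate 1) to 37.1% (34.9% to 39.3%, SF/SCL replicate 2). The intervals of the lowest and highest share of a chain did not overlap, and they cover counting error only. As ratios of reads, C1QA to C1QB ranged 1.35-fold over the libraries, C1QB to C1QC 1.39-fold and C1QA to C1QC 1.60-fold. Mean shares over the 5 libraries were 28.6% ± 3.14 for C1QA, 37.5% ± 2.09 for C1QB and 33.9% ± 3.19 for C1QC (SD, n = 5).

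Other ratios ranged from 1.54-fold (AIF1 to TYROBP) to 9.13-fold (C1q to CD163). C1q reads per CSF1R read were 1.74 and 3.93 (LF/LCL) against 2.27, 3.44 and 2.03 (SF/SCL). CD14 reads per CSF1R read were 0.185 and 0.0760 (LF/LCL) against 0.123, 0.246 and 0.256 (SF/SCL). CD163 reads per CD68 read were 0.906 and 0.462 (LF/LCL) against 1.11, 0.137 and 0.564 (SF/SCL), an 8.13-fold range that includes the library with 13 CD163 reads. None of these ratios separated the groups. There were between 1.00 and 1.54 AIF1 reads per TYROBP read.

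The ratio of LCP1 to CSF1R ranged 3.32-fold over the libraries, close to the 3.36-fold range of CD14 to CSF1R. There were 3.53 and 2.26 LCP1 reads per CSF1R read (LF/LCL) against 1.97, 4.03 and 1.21 (SF/SCL). Against PTPRC (CD45), the phosphatase carried by all leukocytes, LCP1 stayed between 3.56 and 3.90 reads per read in 4 libraries and was 2.17 in SF/SCL replicate 3. CSF1R reads per PTPRC read ran from 0.895 in SF/SCL replicate 2 to 1.97 in SF/SCL replicate 1. PTPRC itself had 689.6 and 816.0 normalized reads (LF/LCL) against 638.4, 458.5 and 575.2 (SF/SCL), and its log2 fold change was 0.44 ± 0.18 (SE; limma adjusted p 0.424).

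**Figure D4:**
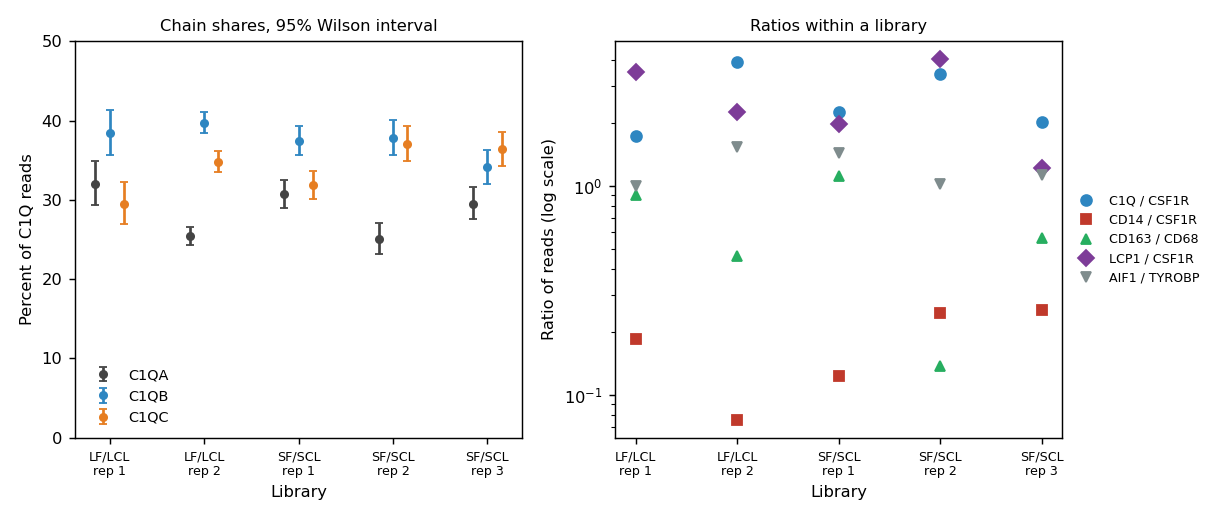
Left, share of C1q reads taken by each chain (y axis, percent) in each library, with 95% Wilson intervals. Right, ratios of reads within a library (y axis, log scale), where C1q stands for the 3 chains summed. The chain shares stayed between 25.1% and 39.7%, while CD163 reads per CD68 read ran from 0.137 to 1.11.

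Related genes of the myeloid lineage were read from lists of 87 symbols, of which 75 were found and 67 tested. With limma 0 of the 67 had an adjusted p under 0.05. An unadjusted limma p under 0.05 was found for 8 genes with higher means in LF/LCL (5.64% of all genes tested) and 1 with a higher mean in SF/SCL (5.86% of all genes tested). DESeq2 called 3 of the 67, FCGRT, ARHGDIB and CTSS, and edgeR called 0. Over all genes tested DESeq2 called 2.9% and edgeR 0.0%. The median log2 fold change was 0.33, and 52 of the 67 were above 0, as were 50.8% of all genes tested. This median was 0.07 without LF/LCL replicate 2 and 0.01 without SF/SCL replicate 2. SF/SCL replicate 2 was the lowest library in 43 of the 67 (18.7% of all genes tested) and the highest in 0 (19.0%). LF/LCL replicate 2 was the highest in 33 of the 67 (20.9% of all genes tested). The summed T and NK lymphocyte markers were not lowest in SF/SCL replicate 2, where they had 739.9 normalized reads against 576.0 and 645.0 in the other SF/SCL cows. Summed markers of other cells were lowest in SF/SCL replicate 2 for B lymphocytes, neutrophils, dendritic cells and fibroblasts. B lymphocyte markers had 19.4 normalized reads there, against 59.8 to 131.6 in the other libraries. LTF made up 225.4 of the 335.7 normalized reads of the neutrophil sum in that library. Of the 4 tested neutrophil genes 3 were lowest there, while S100A12, at 103.4, was above the other SF/SCL cows (59.3 and 86.9). The part of these other cells in the low myeloid values was not tested.

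**Figure D5:**
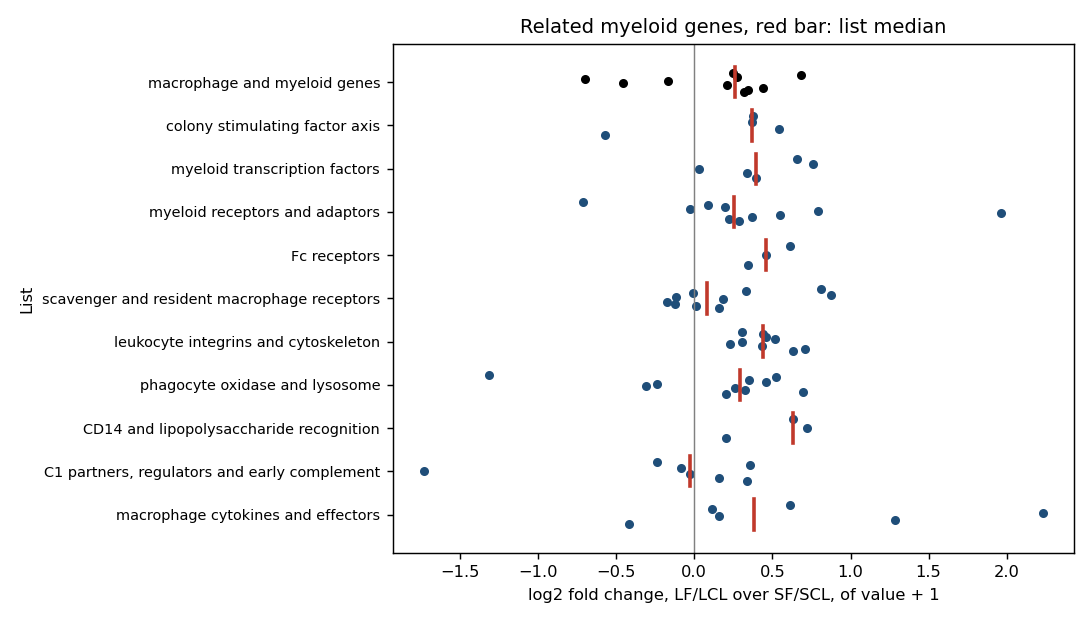
Log2 fold change of LF/LCL over SF/SCL (x axis, log2 of value + 1) of each tested gene (points) in the 10 genes and in each list of related genes (rows), with list medians (red bars). List medians ran from -0.03 (C1 partners) to 0.63 (lipopolysaccharide recognition), and 0 genes had an adjusted limma p under 0.05.

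Among the ligands and receptors of the colony stimulating factor axis, 4 of 7 genes were tested. CSF1, the main ligand of CSF1R, had 167.7 and 244.9 normalized reads (LF/LCL) against 317.1, 211.4 and 408.9 (SF/SCL). Its log2 fold change was -0.57 ± 0.32 (SE; limma adjusted p 0.555). IL34, the other ligand, had a log2 fold change of 0.37 ± 0.47 (SE; limma adjusted p 0.812), and the receptor subunits CSF2RA and CSF2RB had 0.54 ± 0.40 and 0.37 ± 0.74. The mean difference of CSF1R (0.28) was opposite in sign to that of CSF1 and the same in sign as that of IL34. None of them had an adjusted limma p under 0.05. The CSF1R estimate changed sign without LF/LCL replicate 2 (-0.12) or SF/SCL replicate 2 (-0.21).

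All 5 tested transcription factors of the lineage had log2 fold changes above 0. SPI1 (PU.1), the factor that commits cells to the myeloid lineage, had 94.995 and 152.9 normalized reads (LF/LCL) against 75.9, 71.5 and 81.6 (SF/SCL). Its groups did not overlap, and its log2 fold change was 0.65 ± 0.30 (SE; limma adjusted p 0.476). SF/SCL replicate 2 was the lowest library for all 5 factors, against 18.7% of genes tested.

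Of the 10 tested receptors and adaptors, 8 had log2 fold changes above 0. HCST (DAP10), an adaptor encoded next to TYROBP, had 31.7 and 39.7 normalized reads (LF/LCL) against 11.4, 9.33 and 5.37 (SF/SCL). Its log2 fold change was 1.96 ± 0.53 (SE; limma adjusted p 0.306). Use of strand in the counting was not given, so reads of the neighbours HCST and TYROBP, like those of AIF1 and its neighbour LST1, may be shared or lost between them where the genes overlap. TREM2, a receptor that signals through TYROBP, had -0.71 ± 0.55 (SE; limma adjusted p 0.673), and FCER1G, the Fc receptor gamma chain, 0.55 ± 0.35 (SE; limma adjusted p 0.607). HCST also serves receptors of T and NK cells.

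The Fc receptors FCGR3A and FCGR1A, which bind antibody on phagocytes, had log2 fold changes of 0.46 ± 0.47 and 0.35 ± 0.73 (SE; limma adjusted p 0.767 and 0.902). FCGRT, the neonatal Fc receptor, which epithelial and endothelial cells also carry, had 6264 and 5584 normalized reads (LF/LCL) against 3726, 4318 and 3614 (SF/SCL). Its log2 fold change was 0.61 ± 0.12 (SE), with an adjusted p of 0.235 by limma and 0.00484 by DESeq2.

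The scavenger and resident macrophage receptors had a median log2 fold change of 0.08 over 10 tested genes and 6 of them above 0. SIGLEC1, the sialoadhesin of resident macrophages, had 94.995 and 560.4 normalized reads (LF/LCL) against 302.6, 43.5 and 148.1 (SF/SCL). It followed the order of C1QA over the 5 libraries, highest in LF/LCL replicate 2. STAB1, a scavenger receptor of macrophages and sinusoidal endothelium, had 372.9 and 333.0 (LF/LCL) against 463.7, 150.0 and 639.6 (SF/SCL). It followed the order of CD163 over the 5 libraries, highest in SF/SCL replicate 3 and lowest in SF/SCL replicate 2. The log2 fold changes were 0.88 ± 1.04 and -0.01 ± 0.60 (SE; limma adjusted p 0.803 and 0.998). SIGLEC1 and STAB1 were picked for these orders after their values were seen.

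The 9 tested leukocyte integrin and cytoskeleton genes all had log2 fold changes above 0. SF/SCL replicate 2 was the lowest library in each, against 18.7% of genes tested. ARHGDIB, a signalling regulator abundant in leukocytes, had 1095 and 1022 normalized reads (LF/LCL) against 744.4, 572.0 and 745.9 (SF/SCL), and its log2 fold change was 0.63 ± 0.15 (SE; adjusted p 0.289 by limma and 0.0472 by DESeq2). Of the 10 tested oxidase and lysosome genes 7 were above 0. Among them CTSS, a cathepsin of antigen-presenting cells, had 2882 and 3547 normalized reads (LF/LCL) against 2345, 1700 and 1920 (SF/SCL) (log2 fold change 0.70 ± 0.17 SE; adjusted p 0.289 by limma and 0.0321 by DESeq2).

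TLR4, to which CD14 hands lipopolysaccharide, had 881.9 and 816.0 normalized reads (LF/LCL) against 445.0, 712.7 and 516.2 (SF/SCL), and TLR2 had 119.6 and 177.1 against 76.9, 85.5 and 103.0. The groups did not overlap in either, as in 30.1% of genes tested, counting both directions. The log2 fold changes were 0.63 ± 0.21 and 0.72 ± 0.29 (SE; limma adjusted p 0.362 and 0.422). MYD88, the other tested gene of the lipopolysaccharide recognition list, had 1046 and 929.2 normalized reads (LF/LCL) against 939.9, 785.7 and 853.2 (SF/SCL). Its groups overlapped, and its log2 fold change was 0.20 ± 0.13 (SE; limma adjusted p 0.593). The log2 fold changes of TLR4, TLR2 and MYD88 have the opposite sign to that of CD14.

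C1R and C1S, the proteases that C1q activates, had their highest values in SF/SCL replicate 3 and their lowest in SF/SCL replicate 2. Their log2 fold changes were 0.34 ± 0.42 and 0.16 ± 0.45 (SE; limma adjusted p 0.814 and 0.929). C3, the central complement protein, had 7330 and 6291 normalized reads (LF/LCL) against 11960, 19687 and 48734 (SF/SCL). Its log2 fold change was -1.73 ± 0.56 (SE; limma adjusted p 0.362). Among the macrophage cytokines and effectors, 5 of 6 tested were above 0. IL1B, an inflammatory cytokine, had 14.1 and 17.4 (LF/LCL) against 1.04, 1.55 and 7.51 (SF/SCL) (log2 fold change 2.24 ± 0.85 SE; limma adjusted p 0.414). A single read was worth from 0.777 to 1.17 normalized reads in these libraries, so the IL1B estimate rests on few reads.

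Markers of other cells also differed between these libraries, and their part in the values above was not tested. All 10 markers of T and NK lymphocytes had log2 fold changes above 0, and for 7 of the 10 the LF/LCL libraries were above the SF/SCL libraries, as for 15% of genes tested. Smooth muscle markers summed to 106467 and 53367 in LF/LCL against 13100 to 35872 in SF/SCL, with all 6 higher in LF/LCL without overlap, and the 7 tested ciliated markers were all higher in SF/SCL without overlap (15.1% of genes tested). Fibroblast markers summed to 71761 and 29064 in LF/LCL against 18723 to 40568 in SF/SCL. The 4 tested genes of the neutrophil list, S100A8, S100A9, S100A12 and LTF, were all higher in LF/LCL without overlap, while the defining neutrophil genes MPO, CXCR2 and CSF3R had at most 7.74 normalized reads in any library. Of the B lymphocyte list PAX5 had 0 reads, and CD79A had from 6.22 to 42.6 normalized reads. The 6 tested dendritic cell genes had a median log2 fold change of -0.12. Mast cell markers summed to 5066 and 3513 in LF/LCL against 3579 to 4118 in SF/SCL, most of it KIT, and secretory markers to 165416 and 146230 against 147080 to 172778. The secretory sum was mostly OVGP1, and 3 of the 5 secretory markers, PAX8, KRT7 and EPCAM, were higher in LF/LCL without overlap. Endothelial markers summed to 5084 and 3163 against 4257 to 6236. Red blood cell genes summed to 506.6 and 65.8 (LF/LCL) against 21.8, 233.9 and 16.1 (SF/SCL), with ALAS2 at 0. With limma 0 of these markers had an adjusted p under 0.05. DESeq2 called 3 of the 4 neutrophil genes, 3 of the 6 smooth muscle genes and 2 of the 7 ciliated genes. It also called 1 each of the T and NK, secretory and endothelial lists, and 2.9% of all genes tested. All 6 smooth muscle genes and all 7 ciliated genes had an unadjusted limma p under 0.05. The same held for 3 of the 10 T and NK genes and 3 of the 4 neutrophil genes. It held for 3 of the 5 secretory genes, 1 of the 4 endothelial genes and 11.5% of all genes tested.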

How the data were processed

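Ampulla RNA of 5 cows was sequenced by the authors as polyA TruSeq libraries (paired reads). Per the methods and the submitters' processing notes, reads were cleaned with seqyClean and aligned by TopHat2 2.0.8 with Bowtie2 2.1.0, the reference being repeat-masked UMD cattle sequence. HTSeq 0.5.4p2 then counted uniquely mapped reads over Ensembl genes. Use of strand was not given in the sources used here. The deposited signal is the read count divided by 1 DESeq 1.12.1 size factor per library. Division by the value of 1 read gave whole reads for 100% of nonzero values in each library (tolerance 0.01). Sequences and coordinates of the genes were not used here. The reference table, of another assembly, was used for gene order only, and CD163 was not matched in it.

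Values were tested on log2(value + 1) with limma 3.58.1 (R 4.3.3; lmFit, eBayes with trend and robust) for genes with a mean over 5, without covariates, two-sided, and p-values were adjusted by Benjamini-Hochberg across every gene tested (threshold 0.05). A fold change on this scale understates the change of low values. edgeR 4.0.16 and DESeq2 1.42.0 on recovered reads, pseudocounts of 0.5 and 5, other filters, library total scaling and leaving out each library were alternatives. Groups came from the sample titles, replicates were numbered in accession order, and each is a different cow. The genes and lists were chosen with earlier results of these data known. All 10 genes are named, and of related genes those with the smallest p of a list, those of lists with fewer than 6 measured genes, and partners of the 10 genes. The partners, and genes called by DESeq2, were picked after values were seen. The scripts were tested on simulated data.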

Additional observations from a re-analysis of the deposited data

How the results depend on the processing

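Across 12 alternatives, 0 of the 10 genes had an adjusted p under 0.05. Of the 120 alternative estimates of the 10 genes 107 kept their direction, and the 13 that did not each came from leaving out 1 library. Across those fits log2 fold changes ran from -0.21 to 0.67 for CSF1R, from -0.24 to 0.87 for AIF1, from -0.012 to 0.49 for TYROBP, from -0.47 to 1.16 for C1QA, from -0.56 to 1.44 for C1QB, from -0.89 to 1.31 for C1QC and from -1.21 to 0.45 for CD163. The median of the 10 ran from -0.22 to 0.71, that of the related genes from 0.01 to 0.54, and the genes higher in LF/LCL from 2 to 8 of 10. These last 2 summaries were added after seeing the data. The genes with an unadjusted p under 0.05 numbered 1 with DESeq2 and 1 without a filter (LCP1 in both) and from 0 to 2 with a library left out. The 2 were C1QB and C1QC without LF/LCL replicate 1, and the single genes were C1QC without LF/LCL replicate 2, LCP1 without SF/SCL replicate 1 and CD163 without SF/SCL replicate 2. The genes whose groups do not overlap ran from 2 to 9, the 9 arising without LF/LCL replicate 1, when 1 library is left in LF/LCL and 56.9% of all genes tested do not overlap. There were 4 without LF/LCL replicate 2 (57.1% of all genes tested) and 4 without SF/SCL replicate 2 (43%). In such fits the lone library is assumed to vary like SF/SCL. DESeq2 called 458 of all genes tested and 3 related genes, where limma called 0; the cause was not tested. The median over all genes was -0.03 with library total scaling. No paired analysis was possible because every library is from a different cow and the labels give no replicate numbers. Counting error was largest for CD163, at 13 reads in SF/SCL replicate 2, although that library held the most reads (19592174).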
